A study of Drosophila melanogaster with 18 samples.

Results

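Long non-coding RNA (lncRNA) genes that carry small RNA were followed in early embryos of Drosophila melanogaster. The members were chosen by their FlyBase symbol, which starts with "lncRNA:", and by a mean of at least 5 expected counts over the 9 small RNA libraries. This left 95 of the 1899 lncRNA genes in the small RNA table (5%), out of 17773 genes in all, and all 95 were also in the RNA table. Another 801 lncRNA genes had no small RNA count in any library. Whole embryos were collected from 0 to 1.5 h after laying at 25 °C, as 3 groups with 3 libraries each for RNA and 3 each for small RNA of 20 to 30 nt. The groups Piwi-MatKD_1, Piwi-MatKD_2 and GFP-MatKD had mothers labelled 37483/MAT-Gal4, THU/MAT-Gal4 and 41550/MAT-Gal4, in that order, and fathers labelled w1118 in each case. MAT-Gal4 is a maternal driver of hairpin transgenes, and every group carries it. GFP-MatKD is the control, in which the hairpin is named for a fluorescent protein that flies lack. The labels' growth protocol puts the driver in the males, so the direction of the cross is uncertain. Each line is a maternal genotype of its own, and the hairpin and the rest of that genotype cannot be told apart. Since no label says that replicates came from separate collections, p-values measure only the spread between these libraries. In whole embryos, fewer cells with an RNA and less RNA per cell cannot be told apart.

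Long non-coding RNAs are transcripts with no protein product of known function. In flies some of them are precursors of piRNAs, the small RNAs that guide Piwi, Aubergine and Argonaute3, proteins of the Piwi clade, to matching transposon transcripts. Piwi itself acts in the nucleus, where it directs silencing chromatin. Mothers load piRNAs and Piwi proteins into the egg, so an embryo younger than its own main wave of transcription holds mostly maternal small RNA. Many piRNA source loci lie in the repeat-rich chromatin next to the centromeres.

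Expected counts summed to 2.67, 2.34 and 2.29 M in the small RNA of Piwi-MatKD_1, 1.88, 1.98 and 3.38 M in that of Piwi-MatKD_2, and 2.95, 3.18 and 2.86 M in that of GFP-MatKD. RNA libraries held 8.5 to 73.0 M reads. The RNA of piwi, the targeted gene, averaged 355 ± 85.7 normalised reads in Piwi-MatKD_1, 305 ± 299 in Piwi-MatKD_2 and 8748 ± 715 in GFP-MatKD (SD, n = 3 each), or 4.06% and 3.49% of the control mean in the 2 knockdown lines. Muscle genes, which mark embryos older than the collection window, summed to 1718 normalised reads over 9 listed genes in the RNA library of Piwi-MatKD_1 replicate 2, against at most 54.2 in any other library. Eggshell genes, which mark eggs still held by the mother, summed to at most 7.85 over 10 listed genes. Ribosomal RNA genes took 10.9% and 5.90% of the reads in the Piwi-MatKD_2 RNA libraries of 21.6 and 8.5 M reads, against at most 0.535% in any other RNA library. Of 6 germ plasm genes found, all abundant in early embryos, none passed in any RNA comparison (limma; 0, 0 and 1 at an unadjusted p under 0.05).

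The small RNA of these genes was concentrated in few of them. The members held 99.1% of all counts at lncRNA genes, flam alone held 49.7% of the members' counts, and the 10 highest members held 91.9%. These 10 were flam, CR44997, CR44999, bxd, CR44779, CR45939, CR43807, CR45109, the alphagamma-element (CR32865) and CR44833. The median member had a mean of 15.1 expected counts. A mean of at least 10 was reached by 66 members, of at least 100 by 19 and of at least 1000 by 9. Just inside the threshold were CR45464 (5.25), CR42862 (5.11) and CR32582 (5.05), and just outside it CR44206 (4.93), CR44766 (4.88) and CR43256 (4.8).

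**Figure D1:**
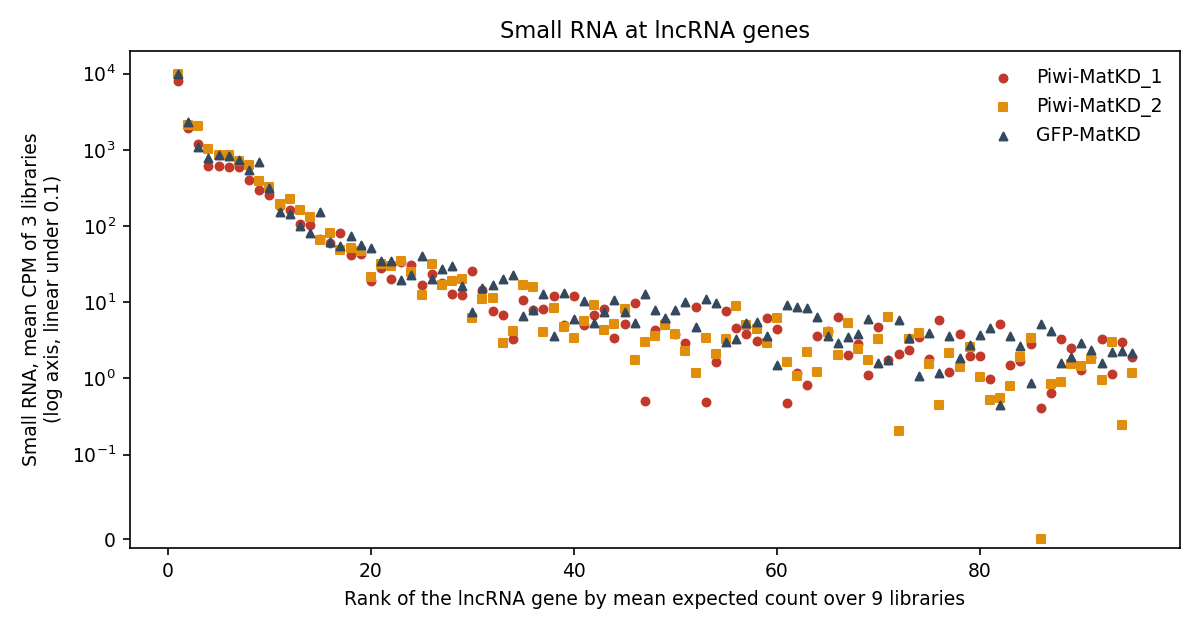
Mean small RNA level (CPM, counts per M scaled by library total and TMM factor, log axis) of the 95 lncRNA genes in Piwi-MatKD_1, Piwi-MatKD_2 and GFP-MatKD, 3 libraries each, ranked by mean expected count. The top gene, flam, stands near 8103 to 9889 CPM in the 3 groups, and CR46015 is at 0 in Piwi-MatKD_2.

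Per length the order was a different one. The members' annotated lengths had a median of 1512 bp, against 657 bp for all 1899 lncRNA genes. In GFP-MatKD the small RNA level per kb of gene was 413 CPM for CR46123, 294 for CR43807, 239 for the alphagamma-element, 119 for CR43488 and 61.5 for flam, against a median of 5.53 over the members. The alphagamma-element is a repeated transcription unit known from the heat shock locus of chromosome arm 3R.

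The member with the most counts was flam. The gene flam is the flamenco locus, a piRNA cluster on the X chromosome (Release 6 assembly, 21631891 to 21790731) known from ovarian follicle cells, where it silences gypsy-family retrotransposons. As a share of all small RNA counts, flam took 0.893% ± 0.0157 in Piwi-MatKD_1, 0.843% ± 0.0315 in Piwi-MatKD_2 and 0.999% ± 0.0698 in GFP-MatKD (SD, n = 3 each). The lowest GFP-MatKD library (0.955%) was above the highest of Piwi-MatKD_1 (0.910%) and of Piwi-MatKD_2 (0.875%). After TMM scaling, flam had 9875, 6901 and 7534 CPM in Piwi-MatKD_1 and 11315, 9862 and 8490 CPM in Piwi-MatKD_2, against 9027, 11064 and 9219 CPM in GFP-MatKD, and the groups overlapped. It did not pass the threshold in either line (edgeR, adjusted p 0.361 and 0.970). Scaled by library totals instead, it passed in Piwi-MatKD_2 (log2 fold change -0.25, adjusted p 0.00970). That scaling moved the median log2 fold change of all features by 0.13 in Piwi-MatKD_1, by -0.23 in Piwi-MatKD_2 and by -0.37 between both lines. All 95 members took 1.77% ± 0.0688 of the counts in Piwi-MatKD_1, 1.74% ± 0.0466 in Piwi-MatKD_2 and 2.00% ± 0.0809 in GFP-MatKD. Without flam these shares were 0.872% ± 0.0657, 0.900% ± 0.0194 and 1.00% ± 0.0163.

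Some members had counts close to those of other genes. Expected counts hold fractions, and only 10 members had whole counts in every library. For 6 of the 79 members with no library at 0, at least 1 other gene had counts within 10% of the member's in every library. CR44779, on the X chromosome, had 18 such genes and CR45939, on chromosome arm 3L, had 19, spread over 5 chromosome arms, and 17 genes were near-identical to both. CR45939 stood at 92.1% to 100.2% of CR44779 in every library. Among their partners were LpR2, a lipophorin receptor gene, KCNQ, a potassium channel gene, and Pka-C3, a kinase gene. The counts of flam were within 10% of those of l(2)41Ab, on arm 2R, those of bxd of Nlg2, those of CR44999 of CG32816 and GEFmeso, and those of CR45109 of 2mit, Neto and para. Of all these pairs, those that overlap in the genome are CR45109 with 2mit and CR45939 with ftz-f1, a nuclear receptor gene. Whether reads are divided between these genes was not tested, and the values of these 6 members are uncertain. Sharing with genes of unlike counts would not be found this way. Of the 17 members lower in small RNA in either knockdown line, given below, only CR45433 and CR46015 had whole counts in every library. Whether the fractions at the others, sphinx among them, come from reads shared with other places was not tested.

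**Figure D2:**
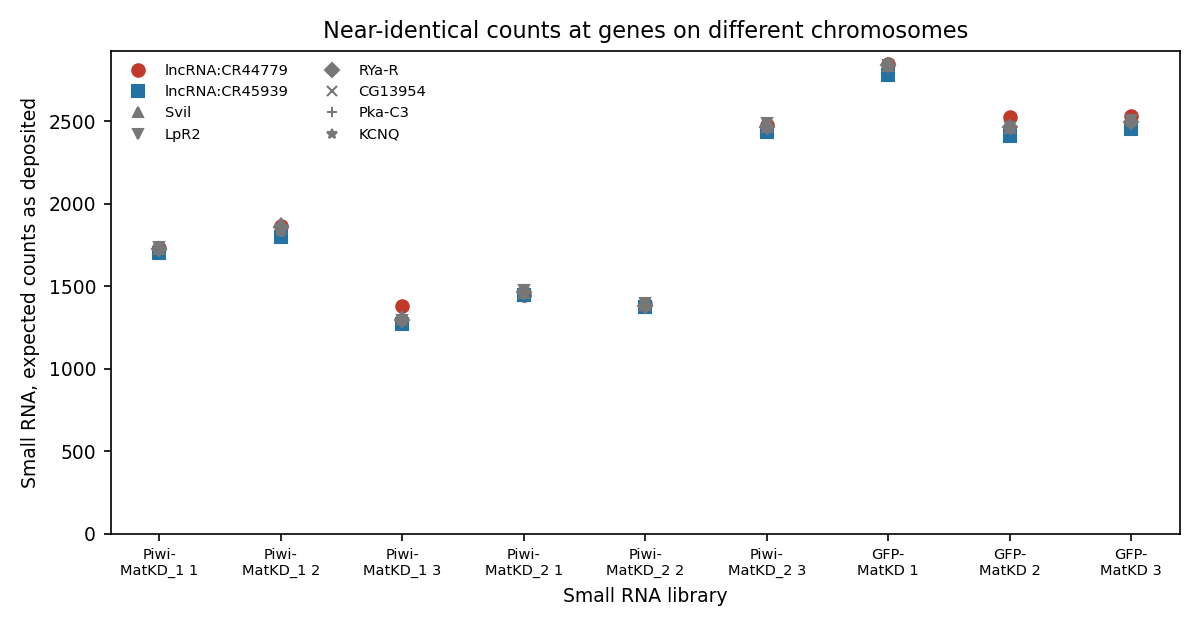
Expected counts of small RNA, as deposited, in each of 9 libraries for CR44779, CR45939 and 6 genes with near-identical counts. In each library the 8 genes lie within 10% of CR44779, although they are on different chromosomes.

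The place of the members in the genome is given as a description, with no test. Within 5 Mb of the centromere end of an arm, or on chromosome 4, were 42 of the 95 members (44.2%), against 10.4% of all lncRNA genes. The X chromosome held 25.3% of the members and 12.2% of all lncRNA genes. No other annotated gene overlapped 42.1% of the members, against 64.0% of all lncRNA genes. Another 22.1% of the members lay inside another gene, against 25.8% of all lncRNA genes. The table of gene positions gives no strand, and use of strand in the counting is not given in the sources used here, so a member inside another gene cannot be told apart from its host by strand.

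The first comparisons asked which of these genes carried more or less small RNA in embryos of Piwi-depleted mothers. With edgeR's quasi-likelihood test over 2169 features and a Benjamini-Hochberg adjusted p under 0.05, 73 of the 95 members were tested. The other 22, with means of 5.05 to 8 expected counts, did not reach the count filter. In Piwi-MatKD_1, 13 of 73 members were lower (17.8%) and 0 were higher, against 7.51% of all features past the threshold, 5.67% lower and 1.84% higher. In Piwi-MatKD_2, 13 of 73 were lower (17.8%) and 2 were higher (2.74%), against 12.5% of all features past the threshold, 6.59% lower and 5.95% higher. Over the 73 members the log2 fold changes had medians of -0.34 for Piwi-MatKD_1 and -0.28 for Piwi-MatKD_2, while over all features tested the medians were 0.13 and -0.04. The 3 GFP-MatKD libraries are shared by both comparisons.

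The filter kept 7 members through their GFP-MatKD libraries alone, CR46075, CR44024, CR45433, CR45180, CR45502, CR46250 and CR46015, which therefore had to differ in some degree. Among the other 66 members tested, 9 were lower in Piwi-MatKD_1, 9 in Piwi-MatKD_2 and 6 in both. The matching share over all features, with such features left out, was not computed. The other 66 each had at least 1 knockdown library at the filter's minimum, but some still needed GFP-MatKD libraries to pass. CR45188 and CR45159, both called lower, are among these. The counts moved with single libraries. Leaving out Piwi-MatKD_1 replicate 2 or 3, or GFP-MatKD replicate 1, 2 or 3, left 7, 6, 6, 5 and 8 members past the threshold in Piwi-MatKD_1, in that order. Leaving out Piwi-MatKD_2 replicate 2 or 3, or GFP-MatKD replicate 1 or 3, left 7, 7, 6 and 8 in Piwi-MatKD_2. The matching counts over all features are not given here, so these falls are not known to be particular to the members. Scaled by library totals, 2 of 73 members were higher and 14 lower in Piwi-MatKD_1, where 287 of 2169 features passed. In Piwi-MatKD_2 1 was higher and 18 lower, where 408 features passed. With no filter on low counts, 2 of 95 were higher and 16 lower in Piwi-MatKD_1, where 231 of 12448 features passed. In Piwi-MatKD_2 1 was higher and 16 lower, where 273 passed. DESeq2 gave 0 higher and 14 lower in Piwi-MatKD_1 (173 features passed) and 2 and 10 in Piwi-MatKD_2 (249 passed).

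In both lines 9 members were lower, which is 69.2% of the lower members of each line. Over all features tested, the 76 lower in both lines were 61.8% of those lower in Piwi-MatKD_1 and 53.1% of those lower in Piwi-MatKD_2. These 9 were sphinx, the alphagamma-element, CR46123, CR45334, CR43242, CR45159, CR46075, CR44024 and CR45433.

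The gene sphinx, a young non-coding gene of chromosome 4 that arose by retroposition and is known for an effect on male courtship, fell in both lines. It carried 4.41, 1.98 and 3.55 CPM of small RNA in Piwi-MatKD_1 and 5.07, 3.42 and 3.94 CPM in Piwi-MatKD_2, against 20.2, 30.8 and 18.1 CPM in GFP-MatKD. All 6 knockdown libraries lay below all 3 control libraries, at means of 14.4% and 18.0% of the control. The log2 fold changes were -2.81 (SE 0.39, adjusted p 0.00456, edgeR) for the first line and -2.47 (SE 0.39, adjusted p 0.00247) for the second. It passed under all 15 alternative settings in each line, with an adjusted p of at most 0.0206. It lies inside fuss, a transcriptional regulator gene. Small RNA at fuss averaged 52.1 ± 3.39 CPM in Piwi-MatKD_1, 80.3 ± 14.1 CPM in Piwi-MatKD_2 and 77.7 ± 14.4 CPM in GFP-MatKD (adjusted p 0.148 and 0.944, edgeR). The test of the difference between the lines gave sphinx an adjusted p of 0.628 (edgeR).

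The alphagamma-element had the most counts of the 9. It carried 388, 245 and 265 CPM in Piwi-MatKD_1 and 453, 387 and 326 CPM in Piwi-MatKD_2, against 665, 717 and 725 CPM in GFP-MatKD. Neither knockdown line overlapped GFP-MatKD. A log2 fold change of -1.23 (SE 0.21, adjusted p 0.00704, edgeR) for Piwi-MatKD_1 passed under all 15 alternatives, and that for Piwi-MatKD_2 was -0.85 (SE 0.21, adjusted p 0.0184). The second call was lost, at an adjusted p of 0.0641 to 0.128, without Piwi-MatKD_2 replicate 2 or 3 or any 1 GFP-MatKD library.

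CR46123, a gene of 368 bp inside Myo81F on arm 3R, carried 91.5, 57.1 and 54.2 CPM in Piwi-MatKD_1 and 87.2, 56.2 and 52.5 CPM in Piwi-MatKD_2, against 151, 178 and 126 CPM in GFP-MatKD. Its log2 fold changes were -1.17 (SE 0.28, adjusted p 0.0285, edgeR) and -1.22 (SE 0.28, adjusted p 0.0156). The host, a myosin gene with a mean of 351543 counts, did not pass in either line (adjusted p 0.470 and 0.850, edgeR). Without single libraries the adjusted p of CR46123 ran up to 0.137 in Piwi-MatKD_1, lost without Piwi-MatKD_1 replicate 2 or 3, Piwi-MatKD_2 replicate 2 or any 1 GFP-MatKD library. In Piwi-MatKD_2 it ran up to 0.0893, lost without Piwi-MatKD_2 replicate 2 or 3 or GFP-MatKD replicate 1 or 2. CR45159, of 575 bp inside Snap25 on arm 3L, carried 4.49, 1.69 and 2.59 CPM in Piwi-MatKD_1 and 2.51, 2.36 and 1.91 CPM in Piwi-MatKD_2, against 9.86, 10.6 and 10.1 CPM in GFP-MatKD. It fell to 28.8% and 22.2% of the control mean (log2 fold change -1.81, SE 0.43, adjusted p 0.0281 and -2.15, SE 0.46, adjusted p 0.0113, edgeR). Snap25, a gene of synaptic vesicle fusion, did not pass (adjusted p 0.415 and 0.871, edgeR). The call of CR45159 was lost in Piwi-MatKD_1 without Piwi-MatKD_1 replicate 2 or 3 or any 1 GFP-MatKD library (up to 0.102), and in Piwi-MatKD_2 without its replicate 3 (0.0654). CR45159 also needed its GFP-MatKD libraries to pass the count filter.

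Another pair lay at the centromere end of arm 2L with no gene overlapping them. CR45334 carried 25.1, 13.9 and 17.7 CPM in Piwi-MatKD_1 and 21.9, 25.0 and 16.6 CPM in Piwi-MatKD_2, against 47.6, 53.3 and 55.2 CPM in GFP-MatKD. The log2 fold changes were -1.46 (SE 0.29, adjusted p 0.0129, edgeR) and -1.29 (SE 0.29, adjusted p 0.0137). The calls were lost without GFP-MatKD replicate 2 (0.0568) in the first line and without Piwi-MatKD_2 replicate 3 (0.0869) in the second. CR43242 carried 22.5, 14.6 and 12.6 CPM in Piwi-MatKD_1 and 13.0, 14.9 and 9.09 CPM in Piwi-MatKD_2, against 41.6, 48.7 and 30.2 CPM in GFP-MatKD. It fell by 1.27 on the log2 scale in Piwi-MatKD_1 (SE 0.33, adjusted p 0.0372, edgeR) and by 1.73 in Piwi-MatKD_2 (SE 0.34, adjusted p 0.00831). The first call was lost, at up to 0.166, without Piwi-MatKD_1 replicate 2 or 3, Piwi-MatKD_2 replicate 2 or any 1 GFP-MatKD library, and the second passed under all 15 alternatives.

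The remaining 3 met the filter in GFP-MatKD libraries alone. CR46075, on arm 2R, carried 0.406, 0.331 and 0.749 CPM in Piwi-MatKD_1 and 3.57, 3.98 and 2.48 CPM in Piwi-MatKD_2, against 7.86, 14.8 and 10 CPM in GFP-MatKD. Behind these values were 1 to 2 expected counts per Piwi-MatKD_1 library. The log2 fold changes were -4.34 (SE 0.55, adjusted p 0.00286, edgeR) and -1.72 (SE 0.45, adjusted p 0.0255). The second was lost without any 1 Piwi-MatKD_2 library or GFP-MatKD replicate 2 or 3 (up to 0.131), with DESeq2 (0.132) and with no filter (0.0582). CR45433, on arm 3L and with whole counts in every library, carried 0.406, 0.663 and 0.374 CPM in Piwi-MatKD_1 and 2.14, 0.569 and 2.17 CPM in Piwi-MatKD_2, against 10.6, 10.6 and 6.36 CPM in GFP-MatKD. It fell by 4.11 (SE 0.62, adjusted p 0.00456, edgeR) and by 2.43 (SE 0.54, adjusted p 0.0134) on the log2 scale. The second call was lost without Piwi-MatKD_2 replicate 2 or GFP-MatKD replicate 1 or 2 (up to 0.0770). CR44024, on chromosome 4, carried 2.19, 1.78 and 0.925 CPM in Piwi-MatKD_1 and 1.87, 2.20 and 2.17 CPM in Piwi-MatKD_2, against 10.9, 14.5 and 4.09 CPM in GFP-MatKD. Its log2 fold changes were -2.70 (SE 0.57, adjusted p 0.0185, edgeR) and -2.14 (SE 0.57, adjusted p 0.0288). The first was lost without Piwi-MatKD_1 replicate 2 or 3 or GFP-MatKD replicate 1 or 2 (up to 0.0995), and the second without any 1 Piwi-MatKD_2 library, without GFP-MatKD replicate 1 or 2 (up to 0.131) and with DESeq2 (0.0707).

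**Figure D3:**
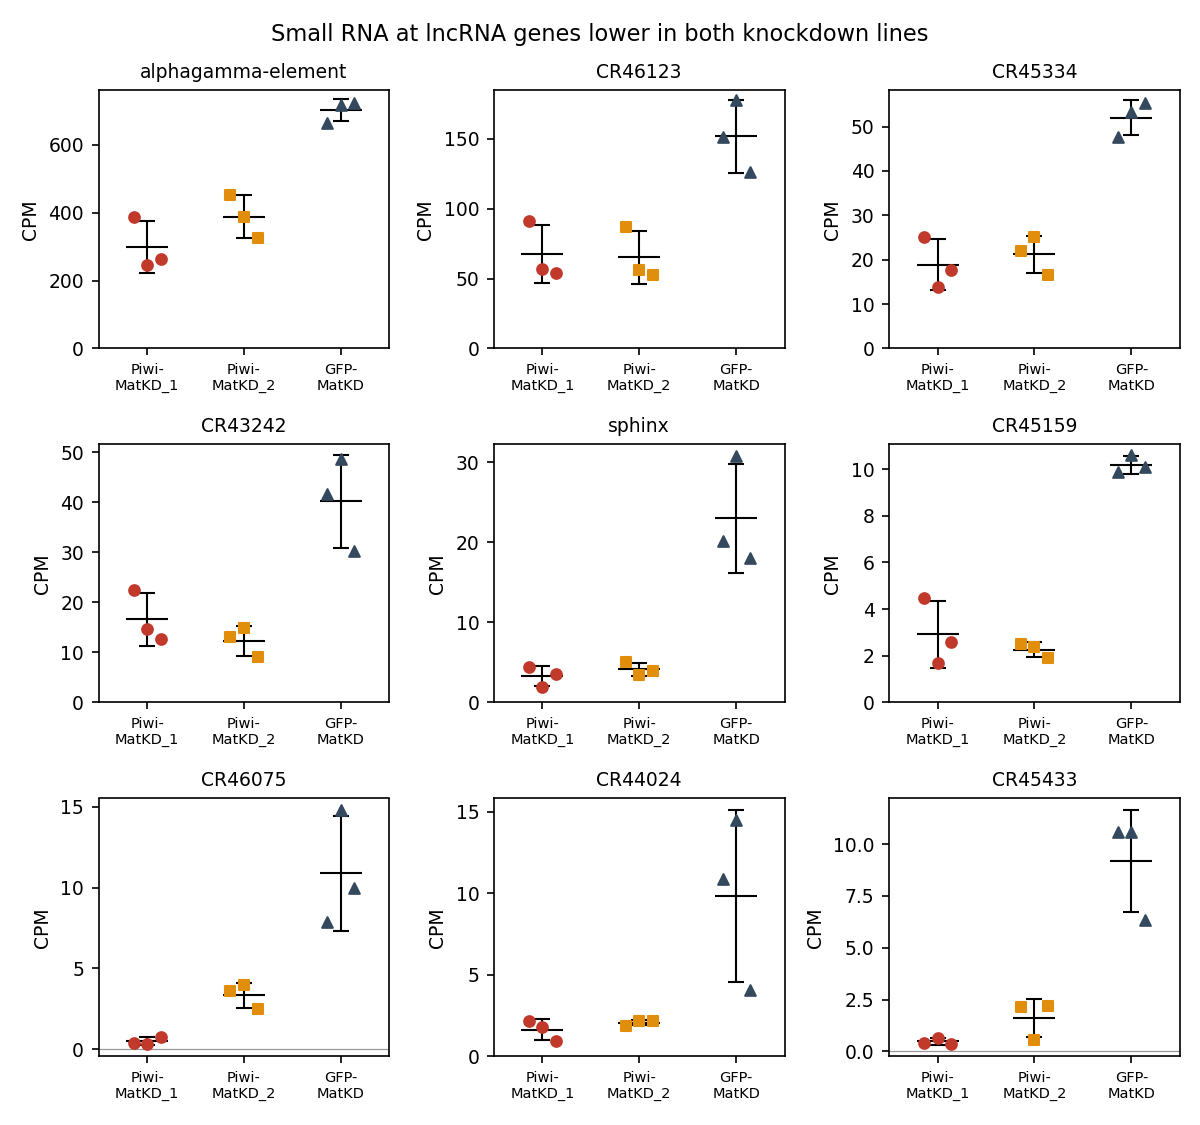
Small RNA level (CPM) in each library for the 9 lncRNA genes lower in both knockdown lines, with the mean and SD of 3 libraries as bars. In every panel the 6 knockdown libraries lie below the 3 GFP-MatKD libraries, and sphinx is at 1.98 to 5.07 CPM against 18.1 to 30.8 CPM. The genes were picked as lower in both lines, so this separation adds no support. CR46075, CR44024 and CR45433 also met the count filter in GFP-MatKD libraries alone.

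Piwi-MatKD_1 had 4 further lower members, CR45188, CR45502, CR44917 and CR45082. CR45188, on arm 3R, carried 0.203, 1.33 and 0 CPM in Piwi-MatKD_1 and 2.86, 4.55 and 1.70 CPM in Piwi-MatKD_2, against 7.05, 22.3 and 9.54 CPM in GFP-MatKD, with a log2 fold change of -4.62 (SE 0.86, adjusted p 0.0123, edgeR) in Piwi-MatKD_1 that passed under all 15 alternatives. In Piwi-MatKD_2 it did not pass (-2.10, adjusted p 0.0760, edgeR). Its GFP-MatKD libraries were needed for it to pass the count filter. The other 3 lie on the X chromosome or at the end of 2L, and their log2 fold changes in Piwi-MatKD_1 were -3.39 (CR45502, adjusted p 0.0211), -1.56 (CR44917, 0.0404) and -1.24 (CR45082, 0.0377, edgeR). CR45502 met the count filter through GFP-MatKD libraries alone. It lost its call without Piwi-MatKD_1 replicate 3 or GFP-MatKD replicate 1 or 2 (up to 0.0770). CR44917 and CR45082 lost theirs when any of 8 and 7 libraries was left out, at up to 0.194 and 0.171, and also with RLE factors (CR45082, 0.0507) or with library totals, DESeq2, no filter or the compared groups alone (CR44917, up to 0.0881). None of the 4 passed in the test of the difference between the lines (adjusted p 0.144 to 0.512, edgeR; 1 at an unadjusted p under 0.05).

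Piwi-MatKD_2 had 4 further lower members, CR45280, CR43967, CR43656 and CR46015. CR45280, on arm 2R with no overlapping gene, carried 0.715, 2.85 and 5.12 CPM in Piwi-MatKD_2 and 9.55, 5.97 and 5.05 CPM in Piwi-MatKD_1, against 15.9, 22.6 and 22.9 CPM in GFP-MatKD. Its log2 fold change in Piwi-MatKD_2 was -2.63 (SE 0.50, adjusted p 0.00651, edgeR) and passed under all 15 alternatives, while that in Piwi-MatKD_1 was -1.55 (adjusted p 0.0600). CR46015 was at 0 in all 3 Piwi-MatKD_2 libraries and carried 1.22, 0 and 0 CPM in Piwi-MatKD_1, against 3.85, 7.74 and 4.01 CPM in GFP-MatKD. With a floor of 3 counts over the group, it was at least 11.1-fold lower in Piwi-MatKD_2 (adjusted p 0.0240, edgeR). It met the count filter through GFP-MatKD libraries alone, so some difference was fixed by the filter. The call was lost without Piwi-MatKD_2 replicate 2 or 3 or any 1 GFP-MatKD library (up to 0.0800). CR43967 and CR43656, inside CG34031 and CG42346, fell by 1.65 (adjusted p 0.0331) and 1.53 (adjusted p 0.0480, edgeR) on the log2 scale in Piwi-MatKD_2. CG34031 did not pass in either line (adjusted p 0.957 and 0.805, edgeR). CG42346 fell by 0.83 in Piwi-MatKD_1 (adjusted p 0.0468) and did not pass in Piwi-MatKD_2 (-0.47, adjusted p 0.220, edgeR). Both members lost the call with DESeq2 (0.0733 and 0.127) and in leave-one-out fits, CR43967 without any 1 Piwi-MatKD_2 library or GFP-MatKD replicate 1 or 3 (up to 0.142). CR43656 lost it without those 5 libraries or Piwi-MatKD_1 replicate 1 (up to 0.181), and also with RLE factors, with no filter and in the fit with a replicate block. None of the 4 passed in the test of the difference between the lines (adjusted p 0.206 to 0.826, edgeR; 0 at an unadjusted p under 0.05).

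The 2 members that were higher in Piwi-MatKD_2 are long genes of the X chromosome. CR44999, which overlaps 15 annotated genes, carried 2483, 2099 and 1666 CPM in Piwi-MatKD_2, against 1441, 1213 and 970 CPM in Piwi-MatKD_1 and 975, 1289 and 1028 CPM in GFP-MatKD. The log2 fold change over GFP-MatKD was 0.92 (SE 0.21, adjusted p 0.0132, edgeR). The call was lost without Piwi-MatKD_2 replicate 1 or 2 or GFP-MatKD replicate 1 or 3 (up to 0.113). CR43836 carried 262, 191 and 228 CPM in Piwi-MatKD_2, against 147, 132 and 150.2 CPM in GFP-MatKD, a log2 fold change of 0.67 (SE 0.19, adjusted p 0.0434, edgeR). It lost the call under RLE factors (0.0529), library totals (0.0599) and no filter (0.597), and without any library of these 2 groups or Piwi-MatKD_1 replicate 1 (up to 0.194).

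Between the lines, 5 of 73 members passed in the test of Piwi-MatKD_2 against Piwi-MatKD_1, 4 higher (5.48%) and 1 lower (1.37%), against 5.39% of all features past the threshold, 3.23% higher and 2.17% lower. The 4 higher in Piwi-MatKD_2 were CR46075, CR44999, bxd and CR45109, and the lower one was CR45284. The gene bxd, a transcribed regulatory region upstream of the Hox gene Ubx, carried 1230 CPM, 964 CPM and 927 CPM in Piwi-MatKD_2, against 746, 526 and 583 CPM in Piwi-MatKD_1, with 795, 724 and 816 CPM in GFP-MatKD. The libraries of Piwi-MatKD_2 and Piwi-MatKD_1 did not overlap (log2 fold change 0.75, SE 0.18, adjusted p 0.0367, edgeR). The call was lost in 11 of 15 alternatives, at up to 0.174, among them RLE factors, no filter, the compared groups alone and the loss of any 1 library other than Piwi-MatKD_1 replicate 1, and by library totals the log2 fold change was 0.37. CR45284, on arm 2L, carried 0.715, 1.14 and 3.33 CPM in Piwi-MatKD_2, against 5.96, 11.6 and 11.9 CPM in Piwi-MatKD_1 (log2 fold change -2.29, SE 0.59, adjusted p 0.0464, edgeR). It lost the call in 6 of 15 alternatives, at up to 0.161: in the compared groups alone and without Piwi-MatKD_1 replicate 2 or 3, Piwi-MatKD_2 replicate 1 or 2 or GFP-MatKD replicate 2. The split depended on the scaling and the filter, with 3 higher and 3 lower by library totals, 1 and 1 with RLE factors, and 1 and 4 with no filter. Over all features, 152, 110 and 172 passed under these settings, in that order, against 117. Leaving out any 1 library left 0 to 3 members past the threshold, with the matching counts over all features not given here.

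Among the other members of known function, roX1, a non-coding RNA of the male X chromosome's dosage compensation complex, carried 41.4, 27.7 and 32.2 CPM of small RNA in Piwi-MatKD_1 and 40.6, 26.1 and 37.9 CPM in Piwi-MatKD_2, against 22.3, 17.3 and 19.3 CPM in GFP-MatKD. All knockdown libraries lay above all control libraries, but neither comparison passed (log2 fold change 0.78, adjusted p 0.115 and 0.83, adjusted p 0.0768, edgeR). By library totals roX1 passed in Piwi-MatKD_1 (0.88, adjusted p 0.0357, edgeR). The gene iab8, a long transcript of the bithorax complex that represses neighbouring Hox genes, carried 3.46, 11.5 and 21.2 CPM in Piwi-MatKD_1 and 0.722, 14.6 and 10.2 CPM in Piwi-MatKD_2, against 2.05, 2.90 and 5.84 CPM in GFP-MatKD. Its libraries spread widely and did not pass (adjusted p 0.177 and 0.344, edgeR). Of 15 lncRNA genes listed for known functions, 11 were in the small RNA table and 5, flam, roX1, iab8, bxd and sphinx, were members. The other 6 had means of at most 1.66 expected counts, among them roX2 (0.0111) and Hsromega (0.974), a stress-induced nuclear RNA.

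The changes are also given by the place of the gene. Of the 73 members tested, 33 lay within 5 Mb of the centromere end of an arm or on chromosome 4. For these the log2 fold changes had medians of -0.85 for Piwi-MatKD_1 and -0.77 for Piwi-MatKD_2, with 10 and 8 of 33 lower and 0 higher. Among the other 40 the medians were 0.11 and 0.04, with 3 and 5 lower and 0 and 2 higher. The difference between both places was not tested, since the members were chosen with their values known. The same split was not made over all features tested, so it is not known to be particular to these genes. The same place held 12 of the 17 members lower in either line (70.6%), against 21 of the 56 tested members lower in neither (37.5%). Without the 7 members kept by the filter through GFP-MatKD alone, a choice made after seeing the data, the medians for 29 members near the centromere were -0.83 and -0.66, with 8 and 7 lower. For 37 members elsewhere they were 0.14 in each line, with 1 and 2 lower. The place near the centromere then held 10 of 12 members lower in either line and 19 of 54 lower in neither. The 12 still include CR45188 and CR45159, which needed GFP-MatKD libraries to pass the filter.

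**Figure D4:**
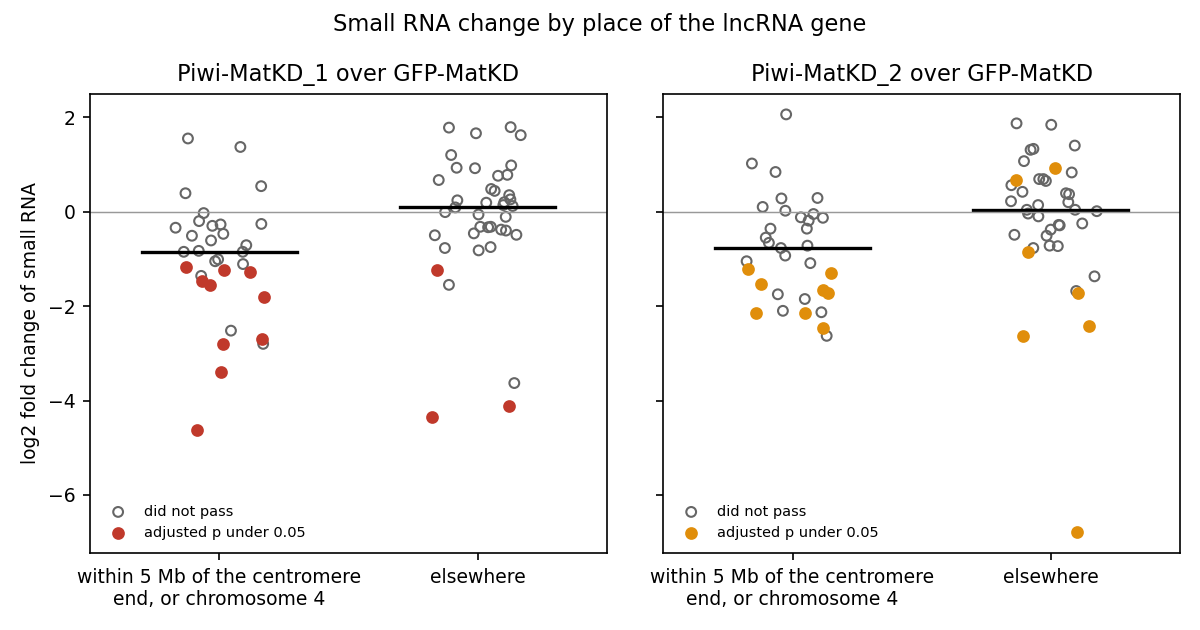
Log2 fold change of small RNA over GFP-MatKD for the 73 members tested, split by whether the gene lies within 5 Mb of the centromere end of an arm or on chromosome 4 (33 genes) or elsewhere (40 genes), in Piwi-MatKD_1 (left) and Piwi-MatKD_2 (right). Bars are medians, at -0.85 and -0.77 near the centromere and 0.11 and 0.04 elsewhere, and filled points have an adjusted p under 0.05.

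The RNA libraries were read for longer transcripts of the same genes. They came from an mRNA kit, and the treatment of multiply matching reads is not given. A value of 0 or a low value therefore does not show that no longer transcript was made. RNA values could be turned back into whole reads while small RNA counts hold fractions, so shared reads may be counted in unlike ways. RNA is given as the deposited normalised reads. Of the 95 members, 17 were at 0 in all 9 RNA libraries, 55 had a mean of at least 1, 30 of at least 10 and 6 of at least 1000. Across the 95 members, RNA per kb and small RNA per kb had a Spearman's rho of 0.05, as a description of genes that share their libraries. Thus flam, first in small RNA counts, had 24.4, 11.6 and 26.5 normalised reads in Piwi-MatKD_1 and 70.6, 38.1 and 33.7 in Piwi-MatKD_2, against 41.5, 56.0 and 46.0 in GFP-MatKD. It did not pass in either line (adjusted p 1.00 and 0.977, limma).

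In RNA, 4 members passed in at least 1 comparison. With limma on log2(value + 1), 62 members were tested among 10767 features. In Piwi-MatKD_1, 0 members passed (1 at an unadjusted p under 0.05, and 0 with edgeR on the recovered reads), against 0.186% of all features, 0.149% higher and 0.0372% lower. In Piwi-MatKD_2, 1 was higher (1.61%) and 3 were lower (4.84%), against 3.04% of all features, 1.62% higher and 1.42% lower. Between Piwi-MatKD_2 and Piwi-MatKD_1, 1 was higher (1.61%) and 2 were lower (3.23%), against 2.22% of all features, 1.21% higher and 1.01% lower. By library totals, which moved the median of all features by -0.15 and -0.16 in these 2 comparisons, 0 were higher and 3 lower over GFP-MatKD, and 0 and 2 over Piwi-MatKD_1. Over the 62 the medians of the log2 fold change were -0.11 for Piwi-MatKD_1 and 0.01 for Piwi-MatKD_2, while over all features they were 0.01 and -0.04. Of the 17 members lower in small RNA in either line, 14 were tested in RNA and 0 passed in any RNA comparison (limma). The RNA of sphinx was 12.4, 4.35 and 13.6 normalised reads in Piwi-MatKD_1 and 34.5, 19.1 and 22.4 in Piwi-MatKD_2, against 13.8, 18.7 and 29.5 in GFP-MatKD. The libraries of Piwi-MatKD_1 lay below those of GFP-MatKD, while those of Piwi-MatKD_2 overlapped them. Neither line passed (adjusted p 1.00 and 0.882, limma).

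CR42862, on arm 3L, fell in Piwi-MatKD_2. It had 2250 normalised reads in the library of 21.6 M reads, 1358 in that of 8.5 M and 1311 in that of 73.0 M, against 4997, 4410 and 5556 in Piwi-MatKD_1 and 5502, 6065 and 5744 in GFP-MatKD. The log2 fold change was -1.86 over GFP-MatKD (SE 0.20, adjusted p 0.00177, limma) and -1.64 over Piwi-MatKD_1 (SE 0.20, adjusted p 0.00363). It passed under all 17 alternatives in both comparisons. Without both libraries rich in ribosomal RNA it was at -2.14 over GFP-MatKD (adjusted p 0.00251, limma). Its small RNA was among the lowest of the members, at a mean of 5.11 expected counts, and was not tested.

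The RNA of roX1 fell in Piwi-MatKD_2 too. It had 36.1, 172 and 86.7 normalised reads in the Piwi-MatKD_2 libraries of 21.6, 8.5 and 73.0 M reads, against 616, 585 and 650 in Piwi-MatKD_1 and 1174, 414 and 607 in GFP-MatKD. The log2 fold change was -3.02 over GFP-MatKD (SE 0.54, adjusted p 0.0189, limma) and -2.90 over Piwi-MatKD_1 (adjusted p 0.0278). Without both libraries rich in ribosomal RNA the values were -2.93 (adjusted p 0.0441) and -2.82 (adjusted p 0.0603, limma). The call over GFP-MatKD was lost without the library of 73.0 M reads (0.0543) or GFP-MatKD replicate 1 or 3 (0.0935 and 0.0787). That over Piwi-MatKD_1 was lost without the same library (0.0688), Piwi-MatKD_1 replicate 1 or 2 (0.113 and 0.0955) or GFP-MatKD replicate 3 (0.0610). Both were also lost in fits of the compared groups alone (0.0597 and 0.0804).

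The RNA of 2 further members passed in Piwi-MatKD_2 over GFP-MatKD. CR45324, on arm 2R, had 1384, 2151 and 1684 normalised reads in the Piwi-MatKD_2 libraries of 21.6, 8.5 and 73.0 M reads, against 938, 1056 and 823 in Piwi-MatKD_1 and 1038, 947 and 996 in GFP-MatKD. It rose by 0.79 on the log2 scale over GFP-MatKD (SE 0.17, adjusted p 0.0474, limma) and by 0.87 over Piwi-MatKD_1 (adjusted p 0.0388). Without both libraries rich in ribosomal RNA the adjusted p was 0.110 and 0.101 (limma). By library totals it was 0.126 and 0.119, and over all alternatives it ran up to 0.164 and 0.165. Of the 9 libraries, the call over GFP-MatKD held only without the 21.6 M library of Piwi-MatKD_2 or without Piwi-MatKD_1 replicate 3, and the call over Piwi-MatKD_1 only without that same Piwi-MatKD_2 library. CR40053, at the centromere end of arm 3L, was at 0 in the 3 Piwi-MatKD_2 libraries, against 1.78, 1.45 and 2.15 normalised reads in Piwi-MatKD_1 and 5.03, 1.70 and 5.21 in GFP-MatKD. Its adjusted p was 0.0361 over GFP-MatKD (limma), and 11 of 16 alternatives lost the call, at up to 0.233. Of the leave-one-out fits, only those without Piwi-MatKD_1 replicate 3 and without GFP-MatKD replicate 2 kept it. CR42862, roX1 and CR45324 each overlap 1 other annotated gene, while CR40053 overlaps 0. As the use of strand is not given, reads in these overlaps cannot be assigned to the lncRNA gene with certainty.

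**Figure D5:**
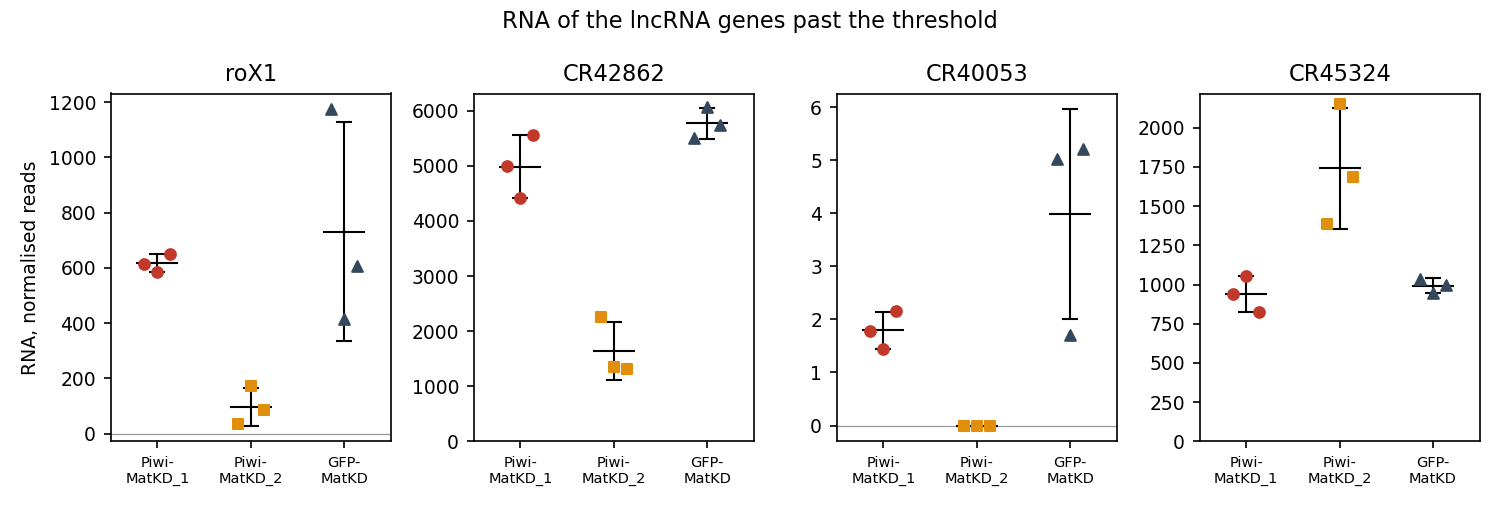
RNA level (normalised reads) in each library for the 4 lncRNA genes that passed in Piwi-MatKD_2 over GFP-MatKD, with the mean and SD of 3 libraries as bars. In Piwi-MatKD_2 roX1, CR42862 and CR40053 lie below both other groups, with CR40053 at 0, and CR45324 lies above them.

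Of the piRNA pathway genes, which make, load and act with piRNAs, piwi alone passed in RNA. Of 36 listed genes, 32 were found and tested, and the 1 that passed was lower in each line (limma). At an unadjusted p under 0.05, 2 of 32 were past it in each line. The list had median log2 fold changes of -0.07 for Piwi-MatKD_1 and -0.06 for Piwi-MatKD_2.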

How the data were processed

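Small RNA values, as the authors deposited them, are expected counts per gene, unscaled. RNA values were deposited as a signal per feature (gene or repeat): reads divided by 1 factor for each library, so that whole reads could be recovered. The submitters' processing notes name cutadapt, Bowtie 1.2.2, featureCounts and the build BDGP6, with no role given. The annotation, the step that made the values, the use of strand and the treatment of multiply matching reads are not given in the sources used here. Per the labels' protocols, RNA libraries came from a stranded mRNA kit, which the series calls total RNA-seq, and small RNA was cut from a 15% gel. Genes were named through a FlyBase symbol table and placed with a RefSeq table of Release 6.

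Expected counts were rounded to whole numbers, scaled by TMM factors, filtered with filterByExpr (a minimum of 3.75 CPM) and tested in edgeR 4.0.16 by quasi-likelihood. For RNA, limma 3.58.1 (eBayes, trended) was run on log2(value + 1), for features that reached 1 normalised read in 3 or more libraries. The fold change in RNA understates that of low genes. All 9 libraries of an assay shared 1 spread, p-values were adjusted by Benjamini-Hochberg over all features tested, and the threshold was 0.05. DESeq2 1.42.0, R 4.3.3, Python 3.11.15 and matplotlib 3.10.9 were also used, and the fits were tested on simulated data. Other scalings, filters, pseudocounts and tools, a replicate block and leaving out each library were tried. In the RNA table, the columns of Piwi-MatKD_2 match that group but no replicate, and are named by their read totals.

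The members, the gene lists and the comparisons were chosen with earlier results of these data known. Genes were named if they were sphinx, among the 10 members with the most counts, past the threshold in a comparison (at most 12 a direction), next to the threshold of 5 counts, or known by a name other than a number. CR43488, CR45180, CR46250 and the genes with near-identical counts were named after their values were seen. Depth limits precision, and floors cover counting error only.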

Additional observations from a re-analysis of the deposited data

Results flagged for a closer look

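For 8 results the change over GFP-MatKD differed between the 2 knockdown lines, by the test of Piwi-MatKD_2 against Piwi-MatKD_1 (edgeR for small RNA, limma for RNA, adjusted over all features). In small RNA, the log2 fold change of Piwi-MatKD_2 over Piwi-MatKD_1 was 2.62 for CR46075 (adjusted p 0.0287), 0.79 for CR44999 (0.0478), 0.75 for bxd (0.0367), 0.67 for CR45109 (0.0476) and -2.29 for CR45284 (0.0464). Over all features, 5.39% passed this test. In each of these 5 genes the libraries of the 2 lines did not overlap. As the genes were picked by the test, this adds no support, and the matching share over all features was not computed. CR44999, bxd and CR45109 are 3 of the 6 members with near-identical counts at other genes. The calls were lost in 9 of 14 alternatives for CR46075, 12 of 15 for CR44999 and for CR45109, 11 of 15 for bxd and 6 of 15 for CR45284, and in the fit of the 2 lines alone none passed, with CR46075 filtered out there. In RNA, the log2 fold change was -2.90 for roX1 (adjusted p 0.0278), -1.64 for CR42862 (0.00363) and 0.87 for CR45324 (0.0388). The Piwi-MatKD_2 RNA libraries of 21.6 and 8.5 M reads held 10.9% and 5.90% of their reads in ribosomal RNA genes. Without both, the values were -2.82 for roX1 (adjusted p 0.0603), -1.92 for CR42862 (0.00348) and 0.85 for CR45324 (0.101).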

How the results depend on the processing

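Of 40 calls of a gene in a comparison, 10 passed under every alternative tried and 30 were lost under at least 1, with no call changing sign. Leaving out 1 library left 5 to 15 members past the threshold in Piwi-MatKD_1, 6 to 19 in Piwi-MatKD_2 and 0 to 3 between the lines in small RNA, and 0, 1 to 4 and 1 to 3 in RNA. These ranges are given without the matching counts over all features, so they are not known to be particular to the members. Where this left 2 libraries in a group, all groups still shared the spread. Between the lines in small RNA, RLE factors gave 2 members and the compared groups alone gave 0, against 5. Over all features these settings called 110 and 87, against 117. In RNA the compared groups alone gave 1 in Piwi-MatKD_2 and 1 between the lines, and leaving out both Piwi-MatKD_2 libraries rich in ribosomal RNA, an alternative chosen after seeing the data, gave 2 and 1, against 4 and 3, with the lone library assumed to vary like the other groups. Without flam, the members' share of counts was 0.872%, 0.900% and 1.00%. Over all features, library totals called 287 in Piwi-MatKD_1 against 163, and the compared groups alone called 212 against 327 (Piwi-MatKD_2) and 65 against 239 (between the lines) in RNA. The causes were not tested.

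A replicate block gave 16, 17 and 8 members past the threshold in small RNA (Piwi-MatKD_1, Piwi-MatKD_2 and between the lines) and 0 in RNA for Piwi-MatKD_1, the one RNA comparison with numbered columns. Over all features it called 295 against 163 in Piwi-MatKD_1 and 246 against 117 between the lines in small RNA, and in RNA 3 against 28 in the fit of the same 2 groups without it. Deviations from the group means of same-numbered libraries correlated across features at r from -0.172 to 0.505 in small RNA and from -0.299 to -0.13 in RNA, and the numbers were not taken to pair the samples. Between the 2 lines, each Piwi-MatKD_2 small RNA library correlated best with the Piwi-MatKD_1 library of its own number, at r of 0.421, 0.015 and 0.358. The best match of each Piwi-MatKD_1 library was not computed, and this is a hint from the data and not the design.

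Some genes that did not pass changed sign, and except where given these still did not pass. In Piwi-MatKD_2 over GFP-MatKD by library totals, the log2 fold change was -0.25 for flam (adjusted p 0.00970, edgeR), -0.27 for CR44779, -0.23 for CR45939 and for CR44833 and -0.04 for CR45109. With no filter it was -0.16 for flam, -0.17 for CR44779 and -0.14 for CR45939 and for CR44833. It was -0.02 for flam and -0.03 for CR44779 in the compared groups alone, 0.00 for CR44779 with the block, and 0.03 (RLE) and 0.04 (DESeq2) for CR43807. Between the lines by library totals it was -0.09 for flam, -0.23 for CR44997, -0.10 for CR43807, -0.05 for CR44833, 0.00 for sphinx and -0.31 for roX1. For roX1 it was 0.00 with no filter and -0.15 in the compared groups alone, where CR44997 was at -0.07. Without 1 library, the range was -0.49 to 0.01 for CR44833 in Piwi-MatKD_1. In Piwi-MatKD_2 it was -0.07 to 0.13 for flam, -0.12 to 0.11 for CR44779, -0.09 to 0.15 for CR45939, -0.13 to 0.07 for CR43807 and -0.05 to 0.12 for CR44833. Between the lines it was -0.08 to 0.25 for CR44997, -0.05 to 0.46 for CR44833, -1.07 to 0.05 for iab8, -0.17 to 0.20 for roX1 and -0.02 to 0.55 for sphinx.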
